A study of Homo sapiens with 6 samples.

Results

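The genes described here encode or control the contractile part of the actin cytoskeleton and the intermediate filament vimentin. They were chosen by symbol from the deposited expression table, as the rows named ACTA2, TPM1, TPM2, TPM4, CNN2, CNN3, TAGLN, MYL9, VIM and SRF, which are 10 of its 22258 gene symbols. All 10 were found once. Of them, 9 were abundant enough to be tested, and CNN3 was not. The study asked what ALDH1B1, a mitochondrial aldehyde dehydrogenase, does in SW480, an established human colon cancer cell line. Total RNA was sequenced from 3 samples with ALDH1B1 knockdown (KD4, KD5 and KD6) and 3 control samples (SCR4, SCR5 and SCR6), whose genotype label is WT. Neither group had a treatment by its label, and trypsin-EDTA is named in the extraction notes. How the knockdown was made, and whether samples are separate cultures or clones, is not given in the sources used here, so p-values speak only to the scatter among these 6 samples, part of which may be technical.

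Actin filaments pull when myosin II slides along them. Tropomyosins lie along the filament and set which proteins may bind it, calponins and transgelin bundle and steady it, and the regulatory light chain switches the motor on. Vimentin forms intermediate filaments in mesenchymal cells and in carcinoma cells that have taken on mesenchymal traits, where it accompanies the keratins of epithelial cells. Many contractile genes are controlled by serum response factor (SRF), which binds a short DNA element called the CArG box. With MRTF cofactors, which are released when actin is polymerised, SRF acts on cytoskeletal genes, and with ternary complex factors such as ELK1 it acts on immediate early genes.

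The promoters of 4 of these genes are shown, 3 that carry that element and that of ACTA2, whose elements are well studied. RefSeq windows of GRCh38.p14, from 250 bases before to 50 bases after a start site, were found for 8 of the 10 genes, 14 windows in all. TAGLN and MYL9 had none. The windows were searched as written for the CArG box and for runs 1 letter away from it. That motif reads the same way on either strand, so a scan of 1 strand covers both. A full box was found in 3 windows, those of SRF, CNN2 and TPM4, and 1.29% of all 35116 promoter windows held one. With runs 1 letter away counted too, the numbers were 7 of 14 windows and 18.9% of all windows. The windows not shown among those 7 are 2 further TPM4 windows and that of VIM, whose run begins 212 bases before the start. Capitals below mark full boxes in SRF, CNN2 and TPM4, with 1 further run in SRF that is 1 letter away and lies after the start. In ACTA2 they mark 2 runs, each 1 letter away from a box, which are known in smooth muscle as its proximal CArG elements. The windows are chr6:43171019-43171318 on the plus strand (SRF), chr19:1026358-1026657 on the plus strand (CNN2), chr19:16067288-16067587 on the plus strand (TPM4) and chr10:88952724-88953023 on the minus strand (ACTA2), each written 5′ to 3′.
SRF: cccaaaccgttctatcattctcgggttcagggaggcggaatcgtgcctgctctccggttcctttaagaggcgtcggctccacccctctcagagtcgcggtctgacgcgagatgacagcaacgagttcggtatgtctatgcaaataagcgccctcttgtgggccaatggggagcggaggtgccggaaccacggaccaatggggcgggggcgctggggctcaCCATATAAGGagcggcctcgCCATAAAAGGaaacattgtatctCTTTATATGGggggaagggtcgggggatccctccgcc
CNN2: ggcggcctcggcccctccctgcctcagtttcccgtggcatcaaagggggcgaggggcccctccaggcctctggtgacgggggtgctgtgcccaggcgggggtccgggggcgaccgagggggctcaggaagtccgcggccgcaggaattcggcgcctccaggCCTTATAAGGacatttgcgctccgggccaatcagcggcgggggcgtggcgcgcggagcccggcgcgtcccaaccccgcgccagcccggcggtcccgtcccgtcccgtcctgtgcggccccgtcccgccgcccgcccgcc
TPM4: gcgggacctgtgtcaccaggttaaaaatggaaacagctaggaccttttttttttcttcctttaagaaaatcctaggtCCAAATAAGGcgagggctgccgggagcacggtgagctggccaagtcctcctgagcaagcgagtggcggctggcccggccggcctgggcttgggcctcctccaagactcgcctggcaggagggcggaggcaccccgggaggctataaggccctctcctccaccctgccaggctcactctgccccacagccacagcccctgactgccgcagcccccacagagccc
ACTA2: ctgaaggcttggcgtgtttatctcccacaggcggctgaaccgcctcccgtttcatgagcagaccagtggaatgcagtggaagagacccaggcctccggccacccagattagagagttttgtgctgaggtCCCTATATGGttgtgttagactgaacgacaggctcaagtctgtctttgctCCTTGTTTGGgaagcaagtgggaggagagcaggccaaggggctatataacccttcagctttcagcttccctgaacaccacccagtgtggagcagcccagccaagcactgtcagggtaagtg
The SRF window held its full boxes 30 and 10 bases before the start, the CNN2 window 89 bases before it and the TPM4 window 173 bases before it. The ACTA2 runs began 121 and 71 bases before the start. Such matches describe the letters only, and neither binding nor the start site in use was measured here.

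In the knockdown samples, the mean level of ACTA2 mRNA was 212% of that in the control samples and the mean level of TPM1 mRNA 47.5%, so genes of the contractile apparatus went in both directions. TPM2 rose with ACTA2, while TPM4, MYL9 and VIM fell with TPM1. CNN2, TAGLN and SRF did not pass the test. A gene is said to rise, fall or change where its Benjamini-Hochberg adjusted p in limma, over all tested genes, was under 0.05. In all, 2 of the 9 tested genes rose and 4 fell, where 41.8% of all 15496 tested genes changed, 22.6% upwards and 19.2% downwards. Their median log2 fold change was -0.16, against 0.00 for all tested genes. The groups did not overlap for 6 of the 9, and for 51.0% of all tested genes.

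**Figure D1:**
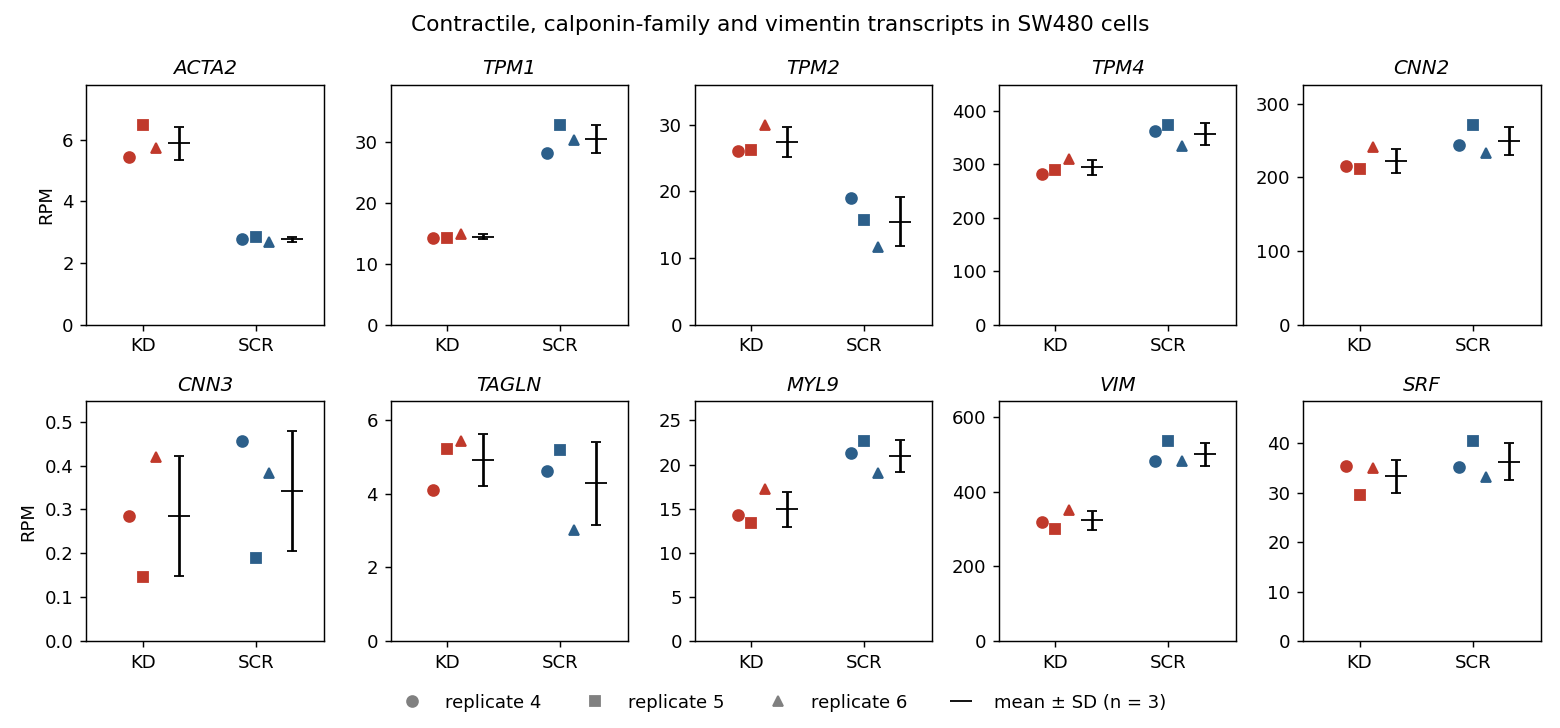
Level in RPM (reads scaled to a depth of 1000000, vertical axis from 0, its own scale in each panel) of the 10 genes in each ALDH1B1 knockdown sample (KD) and control sample (SCR), with the mean and SD of 3 samples beside the points. The groups stand apart for ACTA2, TPM1, TPM2, TPM4, MYL9 and VIM, and overlap for CNN2, CNN3, TAGLN and SRF.

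Sequencing depth, as read from the smallest steps between values, was about 20360000 to 28580000 reads. Control sample SCR6 stood apart, in that 10.8% of all tested genes had their highest control value in it, and none of the 10 genes described here did. ALDH1B1 itself had 19.99, 20.4 and 23.2 RPM in KD4, KD5 and KD6, against 34.1, 39.6 and 36.8 RPM in SCR4, SCR5 and SCR6. That is a log2 fold change of -0.80 with an SE of 0.0926 (limma adjusted p = 2.37e-07), so the knockdown was partial and went the way of the labels. The exact two-sided permutation test of a single gene gave p = 0.1 for ALDH1B1 and for each of the 6 genes whose groups did not overlap, the smallest p that 3 against 3 samples allow. Fewer cells with a transcript and less of it per cell cannot be told apart in these bulk samples.

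ACTA2 encodes smooth muscle alpha-actin, the actin of contractile smooth muscle cells and myofibroblasts (chromosome 10, 90694831 to 90751148, minus strand). Positions here are as the table has them. The table names no build, and it cannot be GRCh38, where chromosome 1 is shorter than the largest end in the table, 249214146. ACTA2 had 5.44, 6.48 and 5.72 RPM in KD4, KD5 and KD6, against 2.78, 2.83 and 2.69 RPM in SCR4, SCR5 and SCR6. Every knockdown sample lay above every control sample, and the control values were nearly alike. The means were 5.88 ± 0.541 RPM in the knockdown and 2.77 ± 0.0686 RPM in the control (SD, n = 3 each), a difference of 1.08 on the log2 scale (SE 0.157, limma adjusted p = 5.47e-06). These values rest on 60 to 150 reads per sample.

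The common cytoplasmic actins moved the other way or did not pass. ACTG1, cytoplasmic gamma-actin, fell to 1131 ± 104 RPM in the knockdown, against 1503 ± 82.3 RPM in the control (SD, n = 3 each), and its log2 fold change was -0.41 (limma adjusted p = 0.000376). ACTB, cytoplasmic beta-actin, had 2572 ± 208 RPM in the knockdown and 2982 ± 156 RPM in the control (SD, n = 3 each), with a limma adjusted p of 0.0591. Actin genes share long stretches of sequence with one another and with pseudogenes, so how reads were split between them is uncertain. Taken within each sample, the log2 ratio of ACTA2 to the sum of ACTB and ACTG1 was -9.35, -9.08 and -9.47 in KD4, KD5 and KD6, against -10.61, -10.71 and -10.66 in SCR4, SCR5 and SCR6. That ratio does not depend on how libraries were scaled. It was higher in the knockdown by 1.36 on the log2 scale, with no overlap (exact two-sided permutation p = 0.1, and 0.15 adjusted over 6 ratios).

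Genes that overlap ACTA2 on the other strand were looked at, since the libraries are strand-specific by their labels but whether counting used the strand is not given. FAS, the death receptor whose first bases overlap the 5′ end of ACTA2, had 17.3 ± 0.536 RPM in the knockdown and 14.7 ± 1.12 RPM in the control (SD, n = 3 each), and its log2 fold change was 0.23 with a limma adjusted p of 0.0633. STAMBPL1, a deubiquitinase gene, had a log2 fold change of -0.24 (limma adjusted p = 0.105). The antisense RNA ACTA2-AS1 had 0 to 14 reads in a sample and was not tested. Of the 20 tested genes nearest to ACTA2 on the chromosome, 0 rose and 2 fell in limma, and the median log2 change was -0.05. By the same test, 22.6% of all tested genes rose and 19.2% fell. At an unadjusted p under 0.05 in limma, 2 of the 20 were higher and 2 lower. Over the 10 genes described here, the median of the 20 nearest tested genes lay between -0.16 (TPM4) and 0.01 (CNN2).

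The 4 tropomyosin genes did not move together. TPM1 encodes alpha-tropomyosin, whose long forms stabilise stress fibres (chromosome 15, 63334831 to 63364115, plus strand). It had 14.3, 14.2 and 14.9 RPM in KD4, KD5 and KD6, against 28.2, 32.8 and 30.3 RPM in SCR4, SCR5 and SCR6. All knockdown values were low and close to one another. The mean was 47.5% of that in the control, a log2 fold change of -1.07 (SE 0.0942, limma adjusted p = 2.23e-09), on 290 to 807 reads per sample. By the size of its change TPM1 ranked 786 and ACTA2 763 among the 15496 tested genes. A non-coding locus inside TPM1 on the other strand, RP11-244F12.3, fell too, with 0.291 ± 0.116 RPM in the knockdown and 1.09 ± 0.217 RPM in the control (SD, n = 3 each), on 4 to 33 reads per sample. Its log2 fold change was -1.97 (limma adjusted p = 0.000918). That locus passed the filter, a mean of 0.688 RPM over all samples, only through its control values, so its test is no support for the TPM1 result. Reads of TPM1 and of that locus cannot be told apart if counting did not use the strand.

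TPM2 encodes beta-tropomyosin, a form of muscle that is also found in stress fibres (chromosome 9, 35681989 to 35691018, minus strand). It had 25.98, 26.2 and 29.97 RPM in KD4, KD5 and KD6, against 18.996, 15.6 and 11.7 RPM in SCR4, SCR5 and SCR6. The groups stood apart although the control values were spread widely, with SCR6 lowest. The means were 27.4 ± 2.25 RPM in the knockdown and 15.4 ± 3.66 RPM in the control (SD, n = 3 each), and TPM2 was higher by 0.85 on the log2 scale (SE 0.125, limma adjusted p = 6.51e-06). Without SCR6 the log2 fold change was 0.66 and the call stayed. Among the 20 nearest tested genes 6 rose and 5 fell in limma, where 22.6% of all tested genes rose and 19.2% fell. The median log2 change of those 20 was -0.13.

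TPM4 encodes a tropomyosin of non-muscle cells (chromosome 19, 16177831 to 16213814, plus strand). It had 283, 290 and 311 RPM in KD4, KD5 and KD6, against 362, 374 and 334 RPM in SCR4, SCR5 and SCR6. The groups did not overlap, but the change was small, a log2 fold change of -0.28 (SE 0.0749, limma adjusted p = 0.00448). TPM3, the remaining tropomyosin gene, also fell, to 218 ± 9.73 RPM in the knockdown, against 263 ± 7.71 RPM in the control (SD, n = 3 each), and its log2 fold change was -0.27 (limma adjusted p = 0.00367). Tropomyosin genes have processed pseudogenes, and reads of these may be counted with them.

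Shares of the reads of the 4 tropomyosin genes give the opposite changes of TPM1 and TPM2 free of library scaling. They are shares of reads, not of molecules, as transcript lengths differ. TPM1 took 2.61% ± 0.0522 of these reads in the knockdown and 4.57% ± 0.287 in the control, and TPM2 took 4.94% ± 0.172 in the knockdown and 2.31% ± 0.514 in the control (SD, n = 3 each). In each knockdown sample TPM2 held the larger share of the pair, and in each control sample TPM1 did. Both shares were without overlap between groups (exact two-sided permutation p = 0.1, and 0.15 adjusted over 6 ratios). The shares of TPM3 and TPM4 were 39.3% ± 0.725 and 53.1% ± 0.686 in the knockdown, against 39.6% ± 1.30 and 53.6% ± 1.03 in the control (SD, n = 3 each). Those shares overlapped between groups, with exact permutation p = 0.8 for TPM3 and 0.6 for TPM4.

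**Figure D2:**
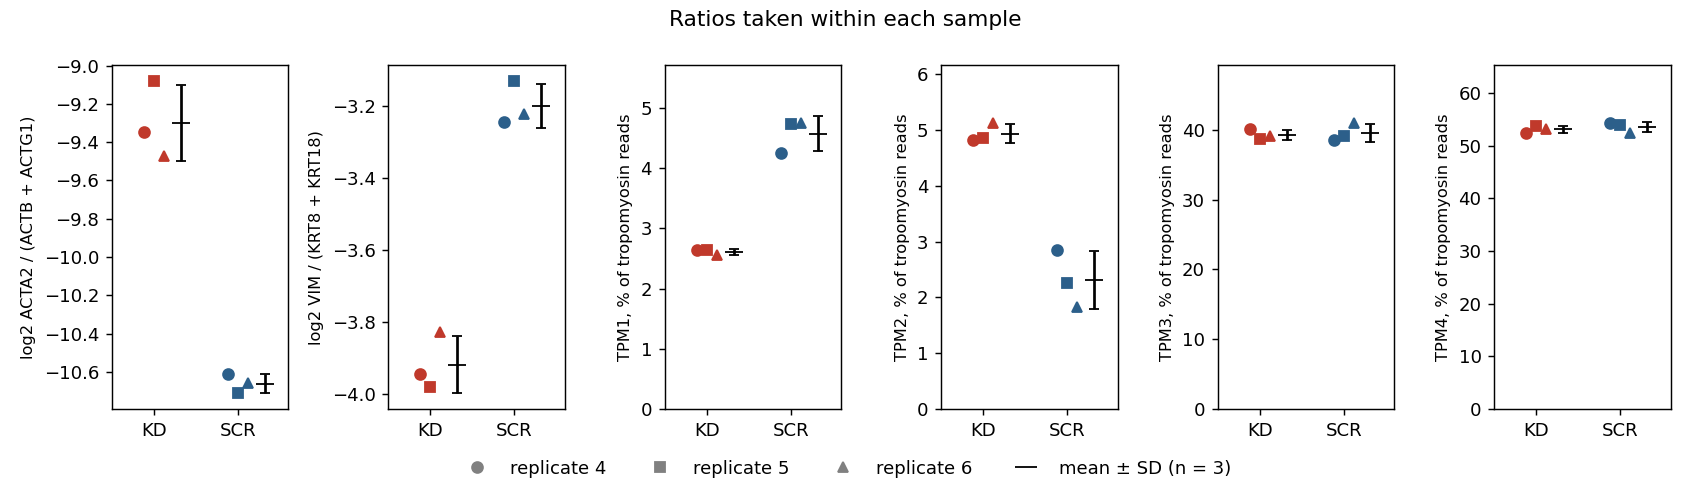
Ratios within each sample, with ALDH1B1 knockdown samples (KD) left of control samples (SCR) and the mean and SD of 3 samples beside the points. The left panels have log2 axes that do not start at 0, and the other 4 show the percentage of tropomyosin reads from each gene. TPM2 has the larger share of the TPM1 and TPM2 pair in every KD sample and TPM1 in every SCR sample, while the TPM3 and TPM4 shares overlap.

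MYL9, a regulatory light chain of myosin II that is typical of smooth muscle and stress fibres, fell (chromosome 20, 35169887 to 35178229, plus strand). It had 14.3, 13.4 and 17.2 RPM in KD4, KD5 and KD6, against 21.3, 22.6 and 19.1 RPM in SCR4, SCR5 and SCR6. The highest knockdown value lay just below the lowest control value. Its change was -0.49 on the log2 scale (SE 0.107, limma adjusted p = 0.000646), and the mean was 71.2% of that in the control. MYL9 is close in sequence to MYL12A and MYL12B, the regulatory light chains of non-muscle cells, so some reads may be shared. MYL12B rose by 0.19 on the log2 scale (limma adjusted p = 0.0455), with 218 ± 10.8 RPM in the knockdown and 192 ± 10.99 RPM in the control (SD, n = 3 each). MYL12A had a log2 fold change of -0.05 (limma adjusted p = 0.586).

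The calponin family and transgelin showed no change past the test. CNN2, the calponin of non-muscle cells (chromosome 19, 1026298 to 1039069, plus strand), had 216, 211 and 242 RPM in KD4, KD5 and KD6, against 244, 271 and 234 RPM in SCR4, SCR5 and SCR6. KD6 lay above SCR6, so the groups overlapped. Its change was -0.16 on the log2 scale (SE 0.0785, limma adjusted p = 0.0990). CNN2 passed, as lower in the knockdown, under median of ratios scaling (limma adjusted p = 0.0175), without KD6 (limma adjusted p = 0.0371) and without SCR6 (limma adjusted p = 0.0238). TAGLN, which encodes transgelin, an early marker of smooth muscle (chromosome 11, 117070037 to 117075499, plus strand), had 4.10, 5.21 and 5.42 RPM in KD4, KD5 and KD6, against 4.62, 5.19 and 3.03 RPM in SCR4, SCR5 and SCR6. SCR6 alone lay below the knockdown samples. TAGLN had a log2 fold change of 0.22 (SE 0.182, limma adjusted p = 0.336), and without SCR6 it was -0.01.

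PCSK7, a proprotein convertase gene on the other strand that overlaps the end of TAGLN, rose by 0.36 on the log2 scale (limma adjusted p = 0.00147). CNN3, the acidic calponin (chromosome 1, 95362507 to 95392835, minus strand), was near the floor, with 0.285, 0.147 and 0.420 RPM in KD4, KD5 and KD6, against 0.455, 0.190 and 0.382 RPM in SCR4, SCR5 and SCR6. That is 3 to 13 reads per sample, and no difference was detectable at this depth. A floor of 3 reads corresponds to 0.105 to 0.147 RPM. The related TAGLN2, transgelin of non-muscle cells, had 201 ± 11.6 RPM in the knockdown and 206 ± 7.92 RPM in the control (SD, n = 3 each), with a limma adjusted p of 0.750.

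VIM, the gene of vimentin (chromosome 10, 17270258 to 17279593, plus strand), fell. It had 317, 300.5 and 351 RPM in KD4, KD5 and KD6, against 483, 534 and 481 RPM in SCR4, SCR5 and SCR6. All knockdown samples lay far below all control samples. The means were 323 ± 25.8 RPM in the knockdown and 499 ± 29.9 RPM in the control (SD, n = 3 each), which is 64.7% of the control. Its change was -0.63 on the log2 scale (SE 0.0782, limma adjusted p = 6.24e-07), on 6116 to 13804 reads per sample. A non-coding locus inside VIM on the other strand had 2.14 ± 0.214 RPM in the knockdown and 3.30 ± 0.532 RPM in the control (SD, n = 3 each) and fell by 0.62 on the log2 scale (limma adjusted p = 0.0121). Reads of VIM and of that locus cannot be told apart if counting did not use the strand, so its fall is no separate result. VIM-AS1, which runs across the start of VIM, had a log2 fold change of 0.36 (limma adjusted p = 0.216).

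Keratins 8 and 18, the intermediate filament pair of simple epithelia, did not pass the test. KRT8 had 2743 ± 62.7 RPM in the knockdown and 2702 ± 12.02 RPM in the control, and KRT18 had 2131 ± 134 RPM in the knockdown and 1881 ± 90.2 RPM in the control (SD, n = 3 each). The limma adjusted p was 0.863 for KRT8 and 0.0969 for KRT18. Within a sample, the log2 ratio of VIM to the sum of KRT8 and KRT18 was -3.94, -3.98 and -3.83 in KD4, KD5 and KD6, against -3.25, -3.13 and -3.22 in SCR4, SCR5 and SCR6. It was lower in the knockdown, by a difference of -0.72, with no overlap (exact two-sided permutation p = 0.1, and 0.15 adjusted over 6 ratios). Of 12 other tested intermediate filament and linker genes, 3 rose and 1 fell in limma, and the median log2 change was 0.03. Over all tested genes 41.8% changed. DES, the desmin of muscle cells, rose by 2.03 on the log2 scale to 2.77 ± 0.324 RPM in the knockdown, against 0.682 ± 0.141 RPM in the control (SD, n = 3 each, limma adjusted p = 1.27e-06). DES had only 12 to 64 reads per sample. Its control mean lay just below the filter of 0.688 RPM, so it was tested through its knockdown level. NES, the neural stem cell filament nestin, rose by 0.39, and KRT7, a keratin of ductal epithelia, by 0.82. LMNB1, a lamin of the nuclear envelope, had a log2 fold change of -0.57 (limma adjusted p = 3.17e-06).

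SRF itself showed no change past the test (chromosome 6, 43139037 to 43149244, plus strand). It had 35.4, 29.5 and 35.01 RPM in KD4, KD5 and KD6, against 35.2, 40.4 and 33.2 RPM in SCR4, SCR5 and SCR6. The groups overlapped. A log2 fold change of -0.12 was found (SE 0.0944, limma adjusted p = 0.313), and it ranged from -0.18 to -0.04 over the alternatives run. Among SRF cofactors, 5 were tested, of which 2 fell and 0 rose in limma, with the same counts at an unadjusted p under 0.05, a share near the 41.8% of all tested genes that changed. MKL1, now named MRTFA and the actin-sensing cofactor, had 23.9 ± 1.88 RPM in the knockdown and 29.998 ± 0.483 RPM in the control (SD, n = 3 each), and its log2 fold change was -0.33 (limma adjusted p = 0.00469). ELK3, a ternary complex factor that can repress, had a log2 fold change of -0.30 (limma adjusted p = 0.00305). MYOCD, the myocardin of smooth and heart muscle, was too low to be tested, at 0.203 ± 0.153 RPM in the knockdown and 0.169 ± 0.0511 RPM in the control (SD, n = 3 each).

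**Figure D3:**
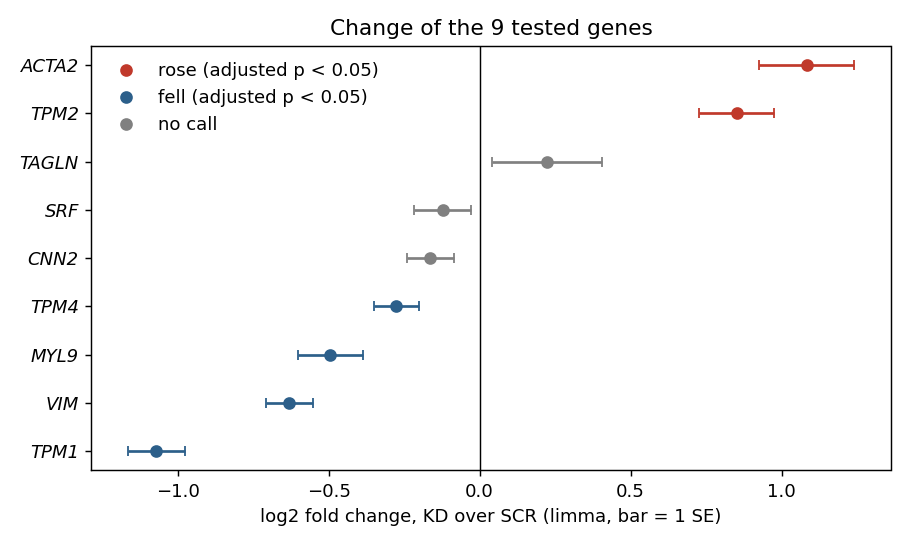
Log2 fold change, ALDH1B1 knockdown over control, of the 9 tested genes from limma, with bars of 1 SE. ACTA2 and TPM2 lie to the right of 0, TPM1, VIM, MYL9 and TPM4 to the left, and TAGLN, SRF and CNN2 (grey) did not pass the test.

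Known targets of SRF went in opposite directions in the lists of cytoskeletal and immediate early genes, a difference that was not tested as such. The lists were drawn up with earlier results of these data known, and the contrast depends on which list a gene was placed in. Of 22 tested cytoskeletal targets of SRF and MRTF, 15 fell and 0 rose in limma, where 19.2% of all tested genes fell and 22.6% rose. The list leaves out the 10 genes described here, of which 2 rose and 4 fell, so its counts do not cover them. The median log2 change of the list was -0.31. At an unadjusted p under 0.05 in limma, 16 were lower and 1 was higher. Some of these targets, such as ACTB, ACTG1, MYH9 and TPM3, also stand in the lists of actins, myosins and tropomyosins. CYR61 (now CCN1), a matricellular protein, fell to 37.0 ± 1.23 RPM in the knockdown, against 73.1 ± 7.47 RPM in the control (SD, n = 3 each), and its log2 fold change was -0.98 (limma adjusted p = 1.84e-09). CTGF (now CCN2), its relative, had a log2 fold change of -1.01. Neither is a cytoskeletal protein, though both stand in this list, and both are also targets of YAP. MICAL2, an actin-oxidising enzyme, had a log2 fold change of -0.74, the filament-disassembly cofactor WDR1 of -0.49 and the muscle ankyrin repeat protein ANKRD1 of -0.47, each past the test in limma.

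Of 10 tested immediate early targets of SRF, 10 rose and 0 fell in limma, where 22.6% of all tested genes rose and 19.2% fell. The counts were the same at an unadjusted p under 0.05, and the median log2 change was 0.73. NR4A1, an orphan nuclear receptor, rose to 71.8 ± 5.28 RPM in the knockdown, against 26.3 ± 4.47 RPM in the control (SD, n = 3 each), and its log2 fold change was 1.46 (limma adjusted p = 4.26e-11). EGR1, a zinc finger factor, rose by 0.88 on the log2 scale, the AP-1 subunits FOSB and JUNB by 0.92 and 0.59, and EGR2 and EGR4, which were scarce, by 2.07 and 1.37. ACTA2 is an SRF target like the 15 cytoskeletal genes that fell, but it was not in their list, and it rose, as TPM2 did. Without SCR6, 15 cytoskeletal targets fell and 0 rose, without KD5 12 fell and 1 rose, and without SCR6 9 immediate early targets rose and 0 fell. With a variance prior without a trend, 11 cytoskeletal targets fell and 7 immediate early targets rose.

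**Figure D4:**
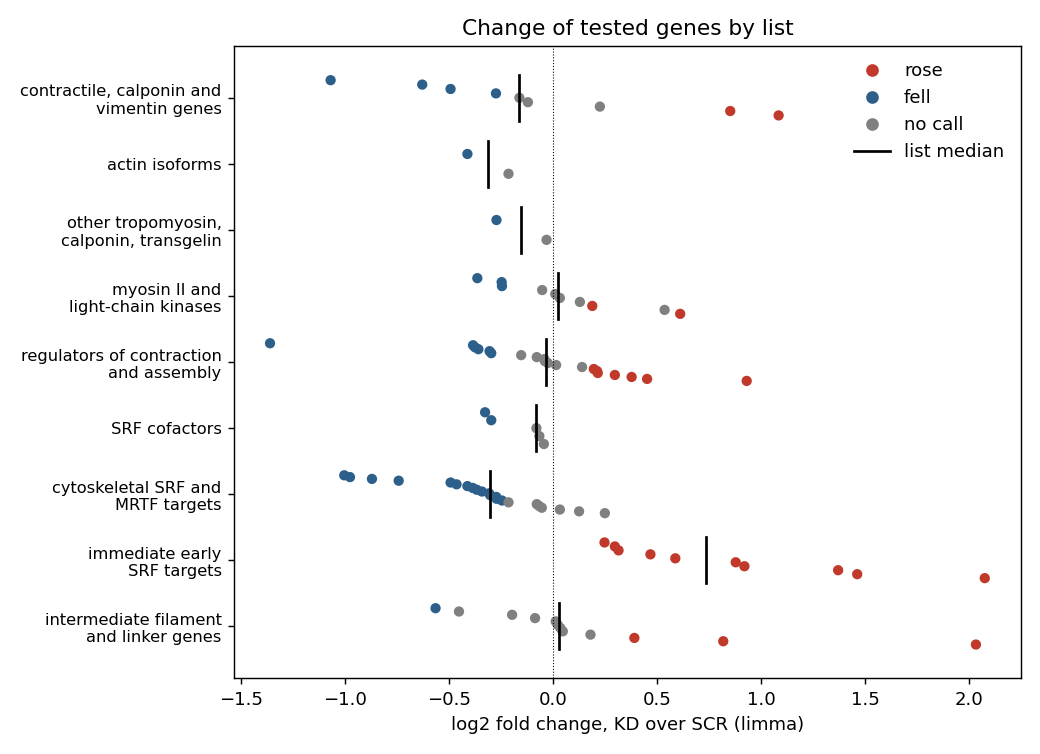
Log2 fold change, ALDH1B1 knockdown over control (limma), of each tested gene by list, coloured by whether it rose, fell or did not pass the test, with list medians as black bars. All 10 listed immediate early targets of SRF lie right of 0, and 15 of the 22 listed cytoskeletal targets of SRF and MRTF fell. Of all tested genes 22.6% rose and 19.2% fell.

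Of 10 tested genes of myosin II and its light-chain kinases 2 rose and 3 fell in limma, where 22.6% of all tested genes rose and 19.2% fell, and the median log2 change was 0.02. MYH14, a heavy chain of epithelial cells, rose by 0.61 to 32.96 ± 3.38 RPM in the knockdown, against 21.7 ± 2.99 RPM in the control (SD, n = 3 each, limma adjusted p = 4.54e-05). The heavy chains MYH9 and MYH10 each had a log2 fold change of -0.25, and the essential light chain MYL6 one of -0.37, all past the test in limma. MYLK, the kinase that phosphorylates the regulatory light chain, was at 3.51 ± 0.441 RPM in the knockdown and 3.50 ± 0.877 RPM in the control (SD, n = 3 each).

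Of 20 tested regulators of contraction and filament assembly 7 rose and 6 fell in limma, against the same 22.6% and 19.2% of all tested genes, and the median log2 change was -0.03. CFL2, the muscle cofilin that severs actin filaments, fell to 9.27 ± 0.87 RPM in the knockdown, against 23.9 ± 2.79 RPM in the control (SD, n = 3 each), and its log2 fold change was -1.36 (limma adjusted p = 6.19e-10). TMOD2, a tropomodulin that caps the end of tropomyosin-coated filaments, rose by 0.93 (limma adjusted p = 4.07e-07). LIMK2, which inactivates cofilin, rose by 0.45, and the GTPase RHOB by 0.38. PPP1R14B, a phosphatase inhibitor, had a log2 fold change of -0.39.

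Markers of other cells that express ACTA2 and DES were checked. Of 6 smooth muscle markers 4 were matched, and their summed level was 5.11 to 5.805 RPM in knockdown samples and 2.85 to 3.69 RPM in control samples. That difference lay in DES: MYH11, smooth muscle myosin, had 2.18 ± 0.118 RPM in the knockdown and 2.19 ± 0.433 RPM in the control (SD, n = 3 each), and LMOD1 and SYNPO2 were below the filter. Of 9 fibroblast markers 3 were matched, with a sum of 5.37 to 7.03 RPM in knockdown samples and 4.18 to 5.74 RPM in control samples, nearly all of it COL1A1 (limma adjusted p = 0.140). Of 4 endothelial markers only VWF was matched, at 0.497 to 0.688 RPM in knockdown samples and 0.425 to 0.617 RPM in control samples. Of 4 leukocyte markers 2 were matched, with a sum of 0.521 to 0.925 RPM in knockdown samples and 1.03 to 1.87 RPM in control samples. All 8 markers of colon epithelium were matched, and their sum was 5830 to 6142 RPM in knockdown samples and 5432 to 5689 RPM in control samples, with KRT8 and KRT18 as the bulk. KRT20 was below the filter. Of the 7 tested, 3 rose and 1 fell in limma, where 22.6% of all tested genes rose and 19.2% fell. CDH1, the adhesion protein E-cadherin, rose by 1.98 on the log2 scale to 50.96 ± 4.97 RPM in the knockdown, against 13.1 ± 2.92 RPM in the control (SD, n = 3 each, limma adjusted p = 3.93e-12). VIL1, the microvillus actin bundler villin, rose by 1.90 to 21.7 ± 1.25 RPM in the knockdown, against 5.82 ± 0.587 RPM in the control (SD, n = 3 each, limma adjusted p = 2.40e-12). EPCAM, an epithelial adhesion protein, rose by 0.90, and CDX2, an intestinal transcription factor, had a log2 fold change of -0.76, both past the test in limma. These markers went in both directions, while VIM fell and ACTA2 rose, and the part of the markers in either result was not tested. The part of other cells in the ACTA2 result was not tested.

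Replicates within a group differed in a common way across these genes. KD6 had the highest knockdown value for 8 of the 10 genes, and 51.4% of all tested genes were highest there. SCR5 had the highest control value for 8 of the 10, and 50.5% of all tested genes were highest there. The ratio of VIM to the sum of KRT8 and KRT18 was likewise highest in KD6 and in SCR5. All listed genes together took 70.7% of the depth in KD6 and 71.1% in SCR5, the highest share of each group. In SCR6 they took 65.1%, the lowest. The part of these shares in the pattern was not tested.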

How the data were processed

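RNA sequencing of 3 ALDH1B1 knockdown and 3 control samples was used. The deposited table holds, for each gene symbol and sample, a log2 value. From the values, with each column's minimum at the log2 of 0.0001, this was taken as log2(RPM + 0.0001), with RPM the reads at a depth of 1000000, a scale the authors' labels do not state. Per the submitters' processing notes, Partek and Bowtie were used, with no versions, and the build hg38 is named, which the positions in the table do not follow. No source used here gives the counting method, gene models or filters. Of 24549 lines, 22258 symbols were read, and a symbol at several loci had identical values and was used once. The values are not whole reads (61.8% to 63.7% of those from 1 to 5 RPM lay within 0.02 reads of a whole number), so count models were not run.

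The 15496 genes whose mean reached 0.688 RPM (1 in 1000000 of the summed gene values) were fitted with limma 3.58.1 in R 4.3.3 (lmFit, eBayes with a trend, statmod 1.5.0 loaded), knockdown against control, with no covariates. Two-sided p-values were adjusted by Benjamini-Hochberg over all tested genes, at a threshold of 0.05, and the fit was tested on simulated data. Means are in RPM with the SD over 3 samples. Ratios within a sample were tested with exact permutation tests. Lists had no test of their own. Symbols were matched directly or through RefSeq synonyms. Promoter sequences came from RefSeq (GRCh38.p14). Python 3.11.15 with matplotlib 3.10.9 drew the figures.

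The genes, lists and tests were chosen with earlier results of these data known. Named beside the 10 genes are, for each list, up to 6 changed genes with the smallest adjusted p, genes that overlap one of the 10 (symbols at several loci left out), and genes that did not pass where their value was needed. Filter, offset, scaling, variance prior, replicate block and each replicate left out were varied. Replicate numbers did not pair the samples. A gene of the list of contraction regulators is not reported here.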

Additional observations from a re-analysis of the deposited data

How the results depend on the processing

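The 6 genes that changed (ACTA2, TPM1, TPM2, TPM4, MYL9 and VIM) kept their direction and stayed past the threshold under all 15 alternatives run: no filter or a stricter one, an offset of 0.1 or 1 RPM, median of ratios scaling, quantile normalization, 2 other variance priors, the replicate block and each replicate left out. The log2 fold change ranged over these from 0.87 to 1.14 for ACTA2 and from -1.12 to -1.02 for TPM1. With a replicate left out, the log2 fold change of TAGLN, which did not pass, ranged from -0.0076 (without SCR replicate 6, where it turned) to 0.38. With an offset of 1 RPM, the log2 ratio of ACTA2 to ACTB and ACTG1 was higher in the knockdown by 1.14. The share of TPM3, which did not differ by its test, turned to 0.04 percentage points higher in the knockdown without KD replicate 5 and to 0.48 without SCR replicate 6. Leaving out replicates in turn gave differences of -0.76 to 0.48 percentage points for TPM3. For the cytoskeletal SRF and MRTF targets, added as alternatives after the data were seen, 1 gene rose under median of ratios scaling, and leaving out replicates gave 0 to 1 that rose and 12 to 15 that fell. The variance prior without a trend gave the lowest counts, 11 cytoskeletal targets that fell and 7 immediate early targets that rose. Same-numbered samples correlated in their deviations across genes by -0.05, -0.06 and -0.13, so the numbers do not pair them; the replicate block gave 3179 genes that rose and 2302 that fell, against 3508 and 2972 without it, and changed no call of the 10 genes. Without SCR replicate 6, 3057 genes rose and 3738 fell. Depth limits CNN3, MYOCD, DES and the non-coding loci, which rest on few reads, and levels of genes that share sequence are uncertain.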

Other observations

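By Pearson correlation of the log2 values over the 6 samples, the genes most like ACTA2 among the 12047 genes whose mean reached 3.44 RPM were DDIT3, a stress-induced transcription factor, THUMPD3, an RNA methyltransferase gene, and MTATP6P1, a nuclear copy of a mitochondrial gene. Their r was 0.999, 0.999 and 0.998, and 715 genes had an r above 0.95. Those most like TPM1 were SOX4, a transcription factor of progenitor cells, STRAP, a receptor-associated WD repeat protein, and MRPL45, of the mitochondrial ribosome, with r of 0.999, 0.999 and 0.998. For TPM1 1010 genes had an r above 0.95. The points share 2 groups of 3 samples, so a gene with a similar split between groups scores high, and these values are given as a description.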
